A study of Homo sapiens with 4 samples.

Results

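The chromatin of 10 genes of mesenchymal identity was examined in SH-SY5Y, a cell line derived from a human neuroblastoma. They are the homeobox genes PRRX1 and MEOX2, the transcription factor genes SNAI2, TWIST1 and TWIST2, the RUNX genes RUNX1 and RUNX2, the coactivator gene YAP1, and VIM and FN1, which encode vimentin and fibronectin. Members were the entries of 2 deposited lists, CHD5 peaks and H3K27me3 regions, that lay within 20 kb of the hg19 spans of these 10 genes. This gave 502 entries of 289616 in all, of which 15 were CHD5 peaks of 32543 and 487 were H3K27me3 regions of 257073. The rule itself uses gene positions and no measured value, although the genes were chosen with earlier results of these data known.

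The study comprised 4 chromatin immunoprecipitation libraries, 1 for each group. All of them came from cells given retinoic acid at 10 uM over 8 days, an agent that drives SH-SY5Y towards a neuron-like state. Cells expressing FBio-CHD5, a tagged CHD5, gave the CHD5 library by capture on streptavidin beads, the H3K27me3 library by antibody and the input library. Cells expressing FBio-Ctrl gave the control pull-down, which together with the input was not analysed here. CHD5 was therefore measured as an added, tagged protein, and H3K27me3 in the same cells that carried it, with no H3K27me3 library from control cells used here. The lists hold no expression values, so neither the cell type nor the activity of any of the 10 genes could be checked against its RNA. Without replicates no error between samples and no test can be given, and every value below describes these libraries.

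Neuroblastoma cells can take an adrenergic, neuron-related identity or a mesenchymal identity that resembles neural crest precursors, and PRRX1 is among the transcription factors known to shift cells towards the latter. SNAI2, TWIST1 and TWIST2 are known for their part in epithelial-mesenchymal transition and in neural crest development. H3K27me3 is the mark written by Polycomb repressive complex 2 and is typically found over silent developmental genes. CHD5 is a chromodomain helicase and a tumour suppressor candidate in neuroblastoma that works with the NuRD chromatin remodelling complex.

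Promoter sequences of 8 of the 10 genes were available from RefSeq (GRCh38.p14, a build other than that of the lists). Of these, 6 sequences are shown, because they belong to genes that carried H3K27me3 at the 5′ end (PRRX1, MEOX2), CHD5 at the 5′ end (VIM), next to nothing (TWIST2), or H3K27me3 only deep inside the gene (RUNX2, 2 promoters). Each run is the 250 bases before the start, 5′ to 3′ on the gene's strand, with the dinucleotide CG in capitals. CG reads the same on both strands. They lie at chr1:170663881-170664130 (PRRX1, plus), chr7:15686684-15686933 (MEOX2, minus), chr10:17227991-17228240 (VIM, plus), chr2:238847835-238848084 (TWIST2, plus), chr6:45328080-45328329 (RUNX2 outer, plus) and chr6:45422025-45422274 (RUNX2 inner, plus).
PRRX1: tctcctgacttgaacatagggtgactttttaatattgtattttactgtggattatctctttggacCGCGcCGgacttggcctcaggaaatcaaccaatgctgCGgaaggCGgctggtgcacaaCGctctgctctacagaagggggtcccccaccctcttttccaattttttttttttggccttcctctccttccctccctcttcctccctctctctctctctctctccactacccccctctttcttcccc
MEOX2: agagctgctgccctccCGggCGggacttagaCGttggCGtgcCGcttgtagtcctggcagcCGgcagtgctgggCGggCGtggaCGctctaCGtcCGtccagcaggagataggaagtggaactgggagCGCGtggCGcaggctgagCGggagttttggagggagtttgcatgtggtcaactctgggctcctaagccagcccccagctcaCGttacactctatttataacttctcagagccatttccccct
VIM: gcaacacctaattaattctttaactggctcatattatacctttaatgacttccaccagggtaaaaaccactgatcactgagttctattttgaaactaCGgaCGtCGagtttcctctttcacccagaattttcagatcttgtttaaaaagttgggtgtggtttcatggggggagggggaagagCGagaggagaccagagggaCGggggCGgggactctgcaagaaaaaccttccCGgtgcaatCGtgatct
TWIST2: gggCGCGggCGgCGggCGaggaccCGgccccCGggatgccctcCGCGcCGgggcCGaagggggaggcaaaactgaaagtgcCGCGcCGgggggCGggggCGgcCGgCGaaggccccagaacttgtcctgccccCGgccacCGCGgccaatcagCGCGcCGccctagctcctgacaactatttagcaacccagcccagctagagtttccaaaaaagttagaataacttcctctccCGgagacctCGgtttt
RUNX2 outer: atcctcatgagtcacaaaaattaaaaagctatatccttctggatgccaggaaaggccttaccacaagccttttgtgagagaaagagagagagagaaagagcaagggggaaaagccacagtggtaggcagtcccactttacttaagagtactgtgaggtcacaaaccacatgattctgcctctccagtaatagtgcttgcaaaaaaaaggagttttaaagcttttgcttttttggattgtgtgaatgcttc
RUNX2 inner: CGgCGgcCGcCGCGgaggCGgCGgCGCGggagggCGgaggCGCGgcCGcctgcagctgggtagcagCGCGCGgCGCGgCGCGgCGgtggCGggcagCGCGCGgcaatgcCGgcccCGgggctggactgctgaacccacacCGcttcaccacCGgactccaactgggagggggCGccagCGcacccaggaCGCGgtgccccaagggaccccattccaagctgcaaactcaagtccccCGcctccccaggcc

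Among the 6 sequences shown, the RUNX2 promoters had the fewest and the most CG. The outer one held 0 CG, where 93.9% of the 35116 RefSeq promoters held at least 1, and the inner one held 34, a number reached by 6.84% of them. PRRX1 held 6 CG, VIM 8 and MEOX2 16, against a median of 11. TWIST2 held 26, a number reached by 19.6% of promoters. Of the promoters not shown, YAP1 held 36 CG, while FN1 and the 1 listed RUNX1 promoter held 32 each. Whether this RUNX1 promoter is the one at the 5′ end of the gene span was not determined. Because the builds differ, these runs were not placed among the peaks, and the 5′ end of each hg19 gene span, known to 1 kb, served as the reference point below.

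The 2 lists did not cover the genes alike. A CHD5 peak was present at 6 of the 10 genes and an H3K27me3 region at 7, with both at 3, CHD5 alone at 3, and H3K27me3 alone at 4. Chromosomes 1 to 22 and X were cut into tiles as wide as each gene's window for a background. Of these tiles, 29.1% to 69.8% held a CHD5 peak, depending on the width, and 27.3% to 58% held an H3K27me3 region. Summed over the 10 widths, this background corresponds to 4.91 windows with CHD5, 4.01 with H3K27me3 and 1.60 with both. The count of genes with CHD5 was thus near the background. Those with H3K27me3 and with both lists were somewhat above it, with no test possible. TWIST2, YAP1 and VIM counted for H3K27me3 only through regions scoring 84.4 or less. Tiles also took in gaps of the assembly and were not centred on genes. The covered share of the windows differed widely between genes.

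Coverage was concentrated at a few genes. SNAI2 and TWIST1 together held 9 of the 15 CHD5 peaks and 27.3 of the 35.7 kb that CHD5 covered. PRRX1, MEOX2, RUNX1 and RUNX2 held 483 of the 487 H3K27me3 regions, or 99.2%. The other 4 H3K27me3 regions, at TWIST2, YAP1 and VIM, were 144 to 204 bp wide and scored 51.1 to 84.4. The score is the authors' value from their peak caller, runs from 50 upwards on a scale that is not stated, and is read here only within its own list. Its median was 117 over all CHD5 peaks and 84.6 over all H3K27me3 regions.

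**Figure D1:**
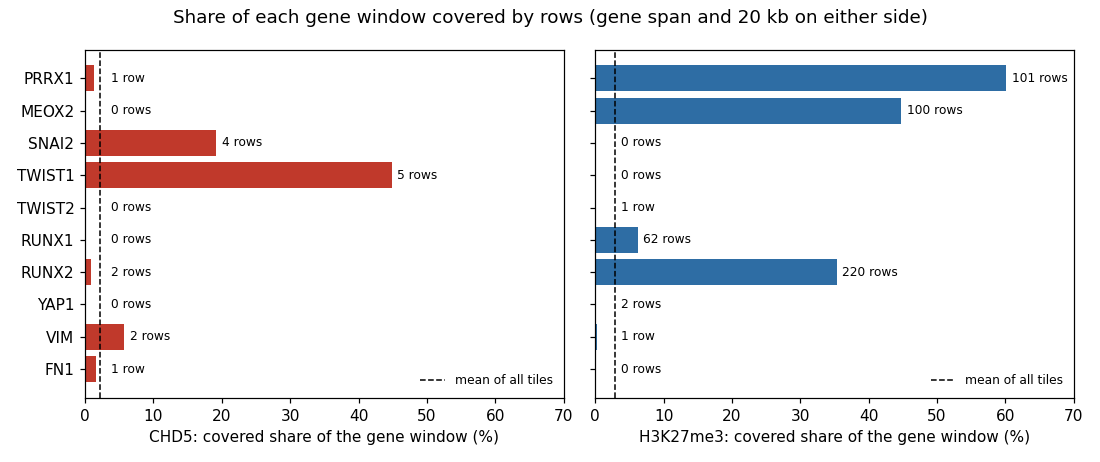
Share of each gene window (gene span and 20 kb on either side, in %) covered by CHD5 peaks (left, red) and by H3K27me3 regions (right, blue), with the number of entries beside each bar and the mean of all equally wide tiles as a dashed line. CHD5 covered 44.9% at TWIST1 and 19.2% at SNAI2, where H3K27me3 covered 0%, while H3K27me3 covered 60.2% at PRRX1, 44.8% at MEOX2 and 35.3% at RUNX2.

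The homeobox genes came out as the most densely marked by H3K27me3. PRRX1 (chromosome 1, 170.633 to 170.709 Mb, plus strand) is a paired-related homeobox gene of limb and craniofacial mesenchyme. Its window of 116 kb held 101 H3K27me3 regions that covered 60.2% of it, against a mean of 2.86% over all tiles, and 39.7% of tiles of this width held any. As much was covered in 0.260% of all tiles and in 0.605% of those of chromosome 1. Regions of the PRRX1 window scored from 50.5 to 3100 with a median of 170.4, and 8 of the 101 were among the top 1% of the whole list by score.

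At PRRX1 the regions formed 3 domains when those up to 3 kb apart were joined. The first ran from 20.9 kb upstream of the 5′ end to 37.8 kb into the gene, a width of 58.7 kb, and listed regions filled 77.3% of it. It was 1 of 3 domains of at least 50 kb at the 10 genes, a width reached by 1.1% of all domains. The strongest PRRX1 region, with a score of 3100, lay 4.80 to 7.54 kb inside the gene on chromosome 1 from 170637802 to 170640542. The next, scoring 2731, lay 2.36 to 5.34 kb upstream, and the one over the 5′ end itself scored 1999. Further strong regions stood apart from these inside the gene, at 29.0 to 32.6 kb with a score of 1685 and at 48.6 to 51.8 kb with 1633.

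PRRX1 was also the 1 gene where a CHD5 peak sat almost wholly within H3K27me3. This peak, on chromosome 1 from 170631234 to 170632797, was 1564 bp wide and ended 0.203 kb before the 5′ end. It scored 104, lower than the list median, and 1458 of its bases, or 93.2%, lay in H3K27me3. It was the only CHD5 peak in the PRRX1 window, where 50.9% of tiles of this width held at least 1. In a population of cells, CHD5 and H3K27me3 on the same chromosomes cannot be told apart from each in different cells.

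MEOX2 (chromosome 7, 15.650 to 15.727 Mb, minus strand), a homeobox gene of somites and muscle precursors, carried H3K27me3 without CHD5. Its window of 117 kb held 100 H3K27me3 regions covering 44.8%, which 0.818% of all tiles reached, and 39.7% of tiles of this width held any. Chromosome 7 was richer in H3K27me3 than the genome, with a tile mean of 6.80%, and 4.78% of its own tiles were covered as much. The region over the MEOX2 5′ end had the highest score of the gene, 2162, and reached from 1.93 kb upstream to 0.598 kb inside. It belonged to a domain of 91.4 kb that ran from 62.3 kb upstream to 29.1 kb into the gene.

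MEOX2 had its second highest score, 1808, at the opposite end of the gene, in a region 3109 bp wide at 74.4 to 77.5 kb. Between the 5′ domain and that end the scores were lower, with a domain of 8.48 kb reaching 168 at most. No CHD5 peak lay in the MEOX2 window, where 51.1% of tiles held 1, and the nearest was 157 kb from the 5′ end. H3K27me3 was thus at the 5′ end of both homeobox genes. Domains of the 2 genes were the only ones of the 31 at the 10 genes that contained the 5′ end of a span. The VIM region began 0.098 kb inside the gene, so with spans given to 1 kb it may or may not contain that 5′ end.

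**Figure D2:**
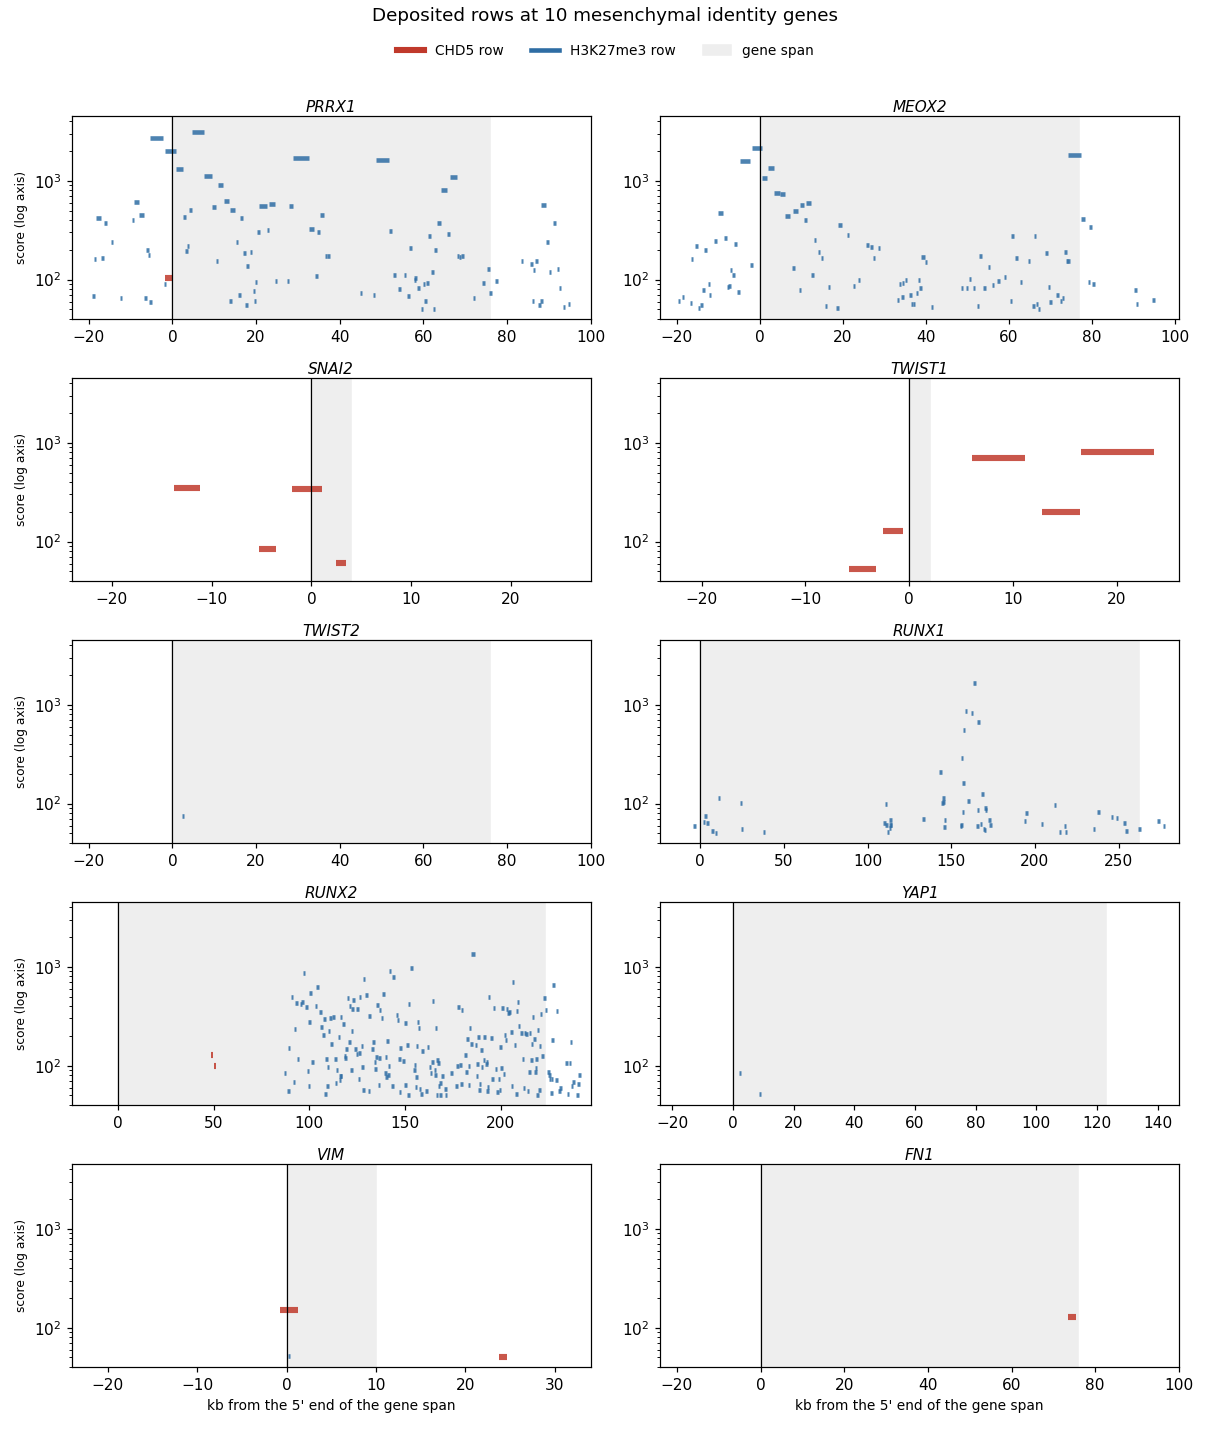
CHD5 peaks (red) and H3K27me3 regions (blue) at each gene, drawn from start to end (short ones widened to stay visible) against distance from the 5′ end of the gene span in kb, with the score on a log axis and the gene span in grey. H3K27me3 scores peak around the 5′ end at PRRX1 and MEOX2, at 163 to 165 kb inside RUNX1, and from 86.6 kb onward in RUNX2. SNAI2, TWIST1 and, with 1 peak, FN1 show CHD5 alone.

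SNAI2 and TWIST1 showed the reverse. SNAI2 (chromosome 8, 49.830 to 49.834 Mb, minus strand) encodes SLUG, a zinc finger repressor of epithelial genes. Its window of 44 kb held 4 CHD5 peaks, a number that 1.79% of all tiles reached, and they covered 19.2% of it against a tile mean of 2.13%. At least 1 peak was present in 30% of tiles of this width, and 27.7% held H3K27me3, of which the SNAI2 window had 0 regions.

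One SNAI2 peak covered the 5′ end. It lay on chromosome 8 from 49832916 to 49835948, from 1.95 kb upstream to 1.08 kb into the gene, and scored 337, a score reached by 12.7% of CHD5 peaks. The highest score, 350.3, belonged to a peak 11.2 to 13.8 kb upstream, from 49845184 to 49847822. A weaker peak between them, 3.51 to 5.21 kb upstream, scored 84.7. The last, over the 3′ part of the gene, scored 61.4 and was 1064 bp wide. The 2 strong SNAI2 peaks were also its widest, at 3033 and 2639 bp, and the nearest H3K27me3 region was 36.6 kb from the 5′ end, on the upstream side.

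TWIST1 (chromosome 7, 19.155 to 19.157 Mb, minus strand) encodes a basic helix-loop-helix factor of cranial mesenchyme and neural crest. Its window of 42 kb held 5 CHD5 peaks, which covered 44.9%. As much was covered in 0.0761% of all tiles and in 0.238% of the tiles of chromosome 7, where the tile mean was 4.19%. At least 1 peak was present in 29.1% of tiles of this width and an H3K27me3 region in 27.3%, and TWIST1 had 0 of the latter.

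The strongest CHD5 peaks at TWIST1 were not at its 5′ end but on the 3′ side of the gene. The first, on chromosome 7 from 19133443 to 19140479, was 7037 bp wide and scored 805, which 1.69% of all CHD5 peaks reached. Part of it lay outside the window, past the edge on the 3′ side. The second, from 19145833 to 19150970, was 5138 bp wide and scored 705, reached by 2.49%. A further peak of 3658 bp, scoring 199, lay between them and was separated from the first by 63 bp. The 3 peaks spanned 17.5 kb and filled 90.3% of it.

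At the TWIST1 5′ end the signal was moderate. A peak of 1924 bp ended 0.584 kb upstream of the 5′ end with a score of 128, and another of 2646 bp at 3.15 to 5.79 kb upstream scored 52.5. The latter was wide for its score: 19.0% of all peaks were as wide, whereas 96.9% scored as high or higher. The gene's own span of 2 kb held no CHD5 peak. The protein-coding neighbour on the upstream side is FERD3L, another basic helix-loop-helix gene.

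**Figure D3:**
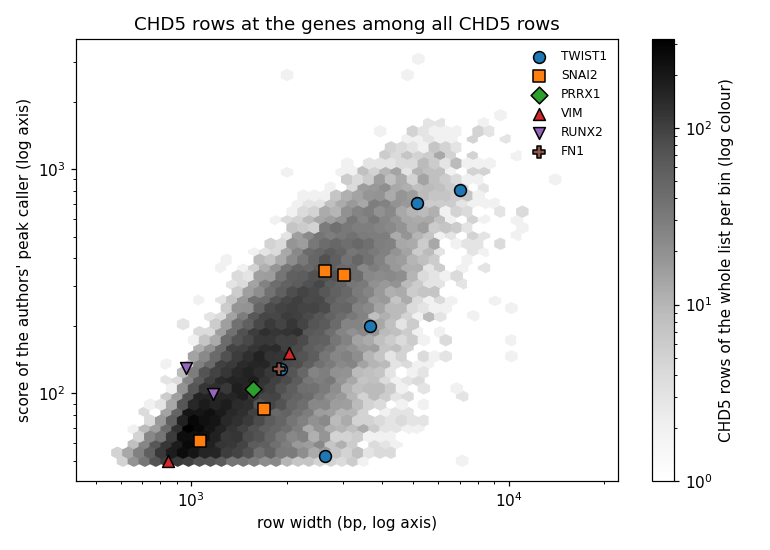
Width (bp) and score, both on log axes, of the 15 CHD5 peaks at the 10 genes (coloured symbols) over the density of all 32543 CHD5 peaks (grey bins). The 2 strongest TWIST1 peaks, at 805 and 705, and the 2 strongest SNAI2 peaks, at 350.3 and 337, lie above the other peaks of the 10 genes in score.

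TWIST2, the paralogue of TWIST1 and a factor of dermal and osteoblast precursors, did not share the TWIST1 pattern. Its window on chromosome 2 (239.756 to 239.832 Mb, plus strand) held 0 CHD5 peaks, where 50.9% of tiles held 1 or more. The nearest CHD5 peak was 169 kb from the TWIST2 5′ end. H3K27me3 was listed once, as a region of 204 bp with a score of 75.6 at 2.20 to 2.41 kb inside the gene, where 39.7% of tiles held any. TWIST2, whose CG-rich promoter is shown above, was thus nearly free of both lists.

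The RUNX genes, which encode the DNA-binding subunits of core binding factor and act in blood (RUNX1) and bone (RUNX2), were both marked by H3K27me3 inside the gene. Each is known to use an outer and an inner promoter. RUNX1 (chromosome 21, 36.160 to 36.422 Mb, minus strand) held 62 H3K27me3 regions in a window of 302 kb, which covered 6.23%. That was moderate: 13.8% of all tiles and 22.0% of those of chromosome 21 were covered as much, and 58% of tiles of this width held any.

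At RUNX1 the strong signal lay in 1 of the 17 domains of the window. A domain of 18.0 kb at 155 to 173 kb from the 5′ end held 21 of the 62 regions. Its strongest region, on chromosome 21 from 36257239 to 36259290, scored 1663. The 41 RUNX1 regions outside this domain scored at most 207, with a median of 64.3, below the list median of 84.6. The closest region to the RUNX1 5′ end began 1.52 kb inside the gene and scored 65.6. CHD5 had 0 peaks in the RUNX1 window, although 69.8% of tiles of this width and 48.4% of those of chromosome 21 held at least 1, and the nearest peak to either end of the gene was 582 kb away.

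RUNX2 (chromosome 6, 45.296 to 45.519 Mb, plus strand) held the most H3K27me3 regions of the 10 genes, 220 in a window of 263 kb. They covered 35.3%, which 1.15% of all tiles and 1.69% of those of chromosome 6 reached, and 55.1% of tiles of this width held any. Of these, 211 formed 1 domain of 144 kb, a width that 0.0623% of all domains reached. It began abruptly at 86.6 kb from the 5′ end and ran to 231 kb, past the 3′ end of the gene. The first 86.6 kb of RUNX2 and the 20 kb before it held no H3K27me3 region. On GRCh38 the outer and inner promoter runs end at 45328329 and 45422274, which is more than 86.6 kb and less than 231 kb apart. If that spacing holds in hg19, the inner promoter falls inside the domain and the outer one before it.

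RUNX2 carried 12 regions with a score of at least 500, fewer than the 19 of PRRX1 in spite of more regions in all, and 1 in the top 1% of the list. Its highest score was 1361 at 184 to 186 kb. CHD5 was present on the free side of the domain edge. A pair of peaks 435 bp apart lay 48.6 to 51.1 kb inside the gene span, with scores of 129 and 99.7. Other genes in this stretch were not placed on hg19, so the pair was not assigned to 1 gene. The peaks of this pair were 961 and 1169 bp wide. They were narrow for the list, since 92.5% and 77.0% of CHD5 peaks were as wide, and lay 35.5 kb or more from the first H3K27me3 region. At least 1 CHD5 peak was present in 67.5% of tiles of this width.

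YAP1, the transcriptional coactivator of the Hippo pathway, was nearly empty. Its window on chromosome 11 (101.981 to 102.104 Mb, plus strand) held 0 CHD5 peaks, where 58.5% of tiles held at least 1, and the nearest was 868 kb from the gene. Its 2 H3K27me3 regions were 144 and 155 bp wide, scored 84.4 and 51.1 and lay 1.82 and 8.52 kb inside the gene. An H3K27me3 region was present in 45.2% of tiles of this width.

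VIM and FN1 encode structural proteins rather than regulators. VIM (chromosome 10, 17.270 to 17.280 Mb, plus strand), the gene of the intermediate filament protein of mesenchymal cells, had a CHD5 peak over its 5′ end. The peak lay on chromosome 10 from 17269216 to 17271244, from 0.784 kb upstream to 1.24 kb into the gene, and scored 152, which 38.2% of CHD5 peaks reached. It contained the 1 H3K27me3 region of the VIM window, 155 bp wide with a score of 51.1, so that 7.64% of the peak lay in H3K27me3. VIM-AS1, an antisense RNA, is the listed neighbour on this side of VIM. Because VIM-AS1 was not placed on hg19, the peak was not assigned to 1 gene. A second CHD5 peak, past the VIM 3′ end and 23.8 kb from its 5′ end, had a score of 50.02, close to the lowest value of the list, 50. CHD5 was present in 32.4% of tiles of this width and H3K27me3 in 29%.

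FN1 (chromosome 2, 216.225 to 216.301 Mb, minus strand), the gene of the matrix protein fibronectin, had its 1 CHD5 peak at the far end of the gene. The peak lay 73.4 to 75.3 kb from the 5′ end, on chromosome 2 from 216225661 to 216227552, and scored 129. The peak lies within the FN1 span. ATIC is the listed neighbour on this side, and because it was not placed on hg19, the peak was not assigned to 1 gene. The FN1 5′ end was 69.7 kb from the nearest CHD5 peak and 191 kb from the nearest H3K27me3 region. Its window of 116 kb had 0 H3K27me3 regions, while 39.7% of tiles of this width held H3K27me3 and 50.9% held CHD5.

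Taking the 5′ ends by themselves, 4 of 10 had a CHD5 peak within 1 kb (PRRX1, SNAI2, TWIST1 and VIM) and 3 had an H3K27me3 region (PRRX1, MEOX2 and VIM). Among all 2-kb tiles, 4.08% held CHD5 and 8.87% held H3K27me3. That background is of the whole genome and not of gene starts, which were not analysed here for other genes. The peak itself reached over the 5′ end at SNAI2 and VIM, and stopped short of it at PRRX1 and TWIST1, by less than the 1 kb to which the spans are given. The strands of SNAI2 and TWIST1 come from general knowledge. Measured from the opposite end, SNAI2 was 0.504 kb and TWIST1 2.58 kb from a CHD5 peak.

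**Figure D4:**
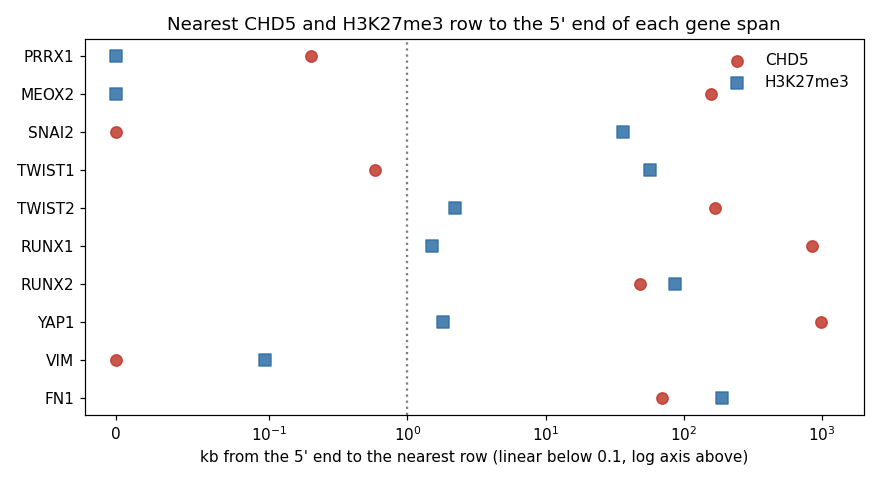
Distance in kb from the 5′ end of each gene span to the nearest CHD5 peak (red circles) and H3K27me3 region (blue squares), on an axis that is linear below 0.1 kb and logarithmic above, with 1 kb marked by a dotted line. PRRX1 and VIM have both within 1 kb, SNAI2 and TWIST1 have CHD5 there with H3K27me3 at 36.6 and 57.4 kb, and MEOX2 has H3K27me3 there with CHD5 at 157 kb.

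Direct overlap could be read from few CHD5 peaks only. Of the 15, 2, or 13.3%, shared at least 1 bp with H3K27me3, at PRRX1 and VIM. In the whole list 2.19% of CHD5 peaks did. With 15 peaks, 9 of them at 2 loci and some only 63 to 641 bp apart, the 2 shares were not compared. The 3 genes with at least 10% of their window in H3K27me3 (PRRX1, MEOX2 and RUNX2) had 3 CHD5 peaks covering 3.69 kb. The 3 without an H3K27me3 region had 10 peaks, 9 of them at SNAI2 and TWIST1 and 1 at FN1, where CHD5 covered 1.63% of the window, below the tile mean of 2.13%. The remaining genes went both ways: TWIST2, YAP1 and RUNX1, with 0.176%, 0.183% and 6.23% of their windows in H3K27me3, had 0 CHD5 peaks, and VIM, with 0.310%, had 2. Over the 10 genes, the numbers of peaks and regions per 100 kb had a Spearman rho of -0.46, given as a description of 10 windows that differ in width.

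Within 500 kb on either side of the 5′ end, the sides of TWIST1 and SNAI2 differed in both lists. How often other stretches of the genome are as one-sided was not analysed here. Around TWIST1 all 291 H3K27me3 regions lay upstream and 0 downstream, whereas 21 of 23 CHD5 peaks touched the downstream side. Of all 1-Mb tiles, 10.5% held as many H3K27me3 regions and 12.2% as many CHD5 peaks. Upstream, a domain of 134 kb ran from 295 to 161 kb before the TWIST1 5′ end. The highest CHD5 score of this neighbourhood, 885, was 223 to 229 kb on the opposite side. Around SNAI2 all 172 H3K27me3 regions lay upstream as well, while 15 of 17 CHD5 peaks touched the downstream side. As many regions were present in 18.3% of 1-Mb tiles and as many peaks in 24.5%, and H3K27me3 covered 4.19% of the SNAI2 neighbourhood. The widest H3K27me3 domain there, 17.0 kb, ran from 141 to 124 kb before SNAI2.

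**Figure D5:**
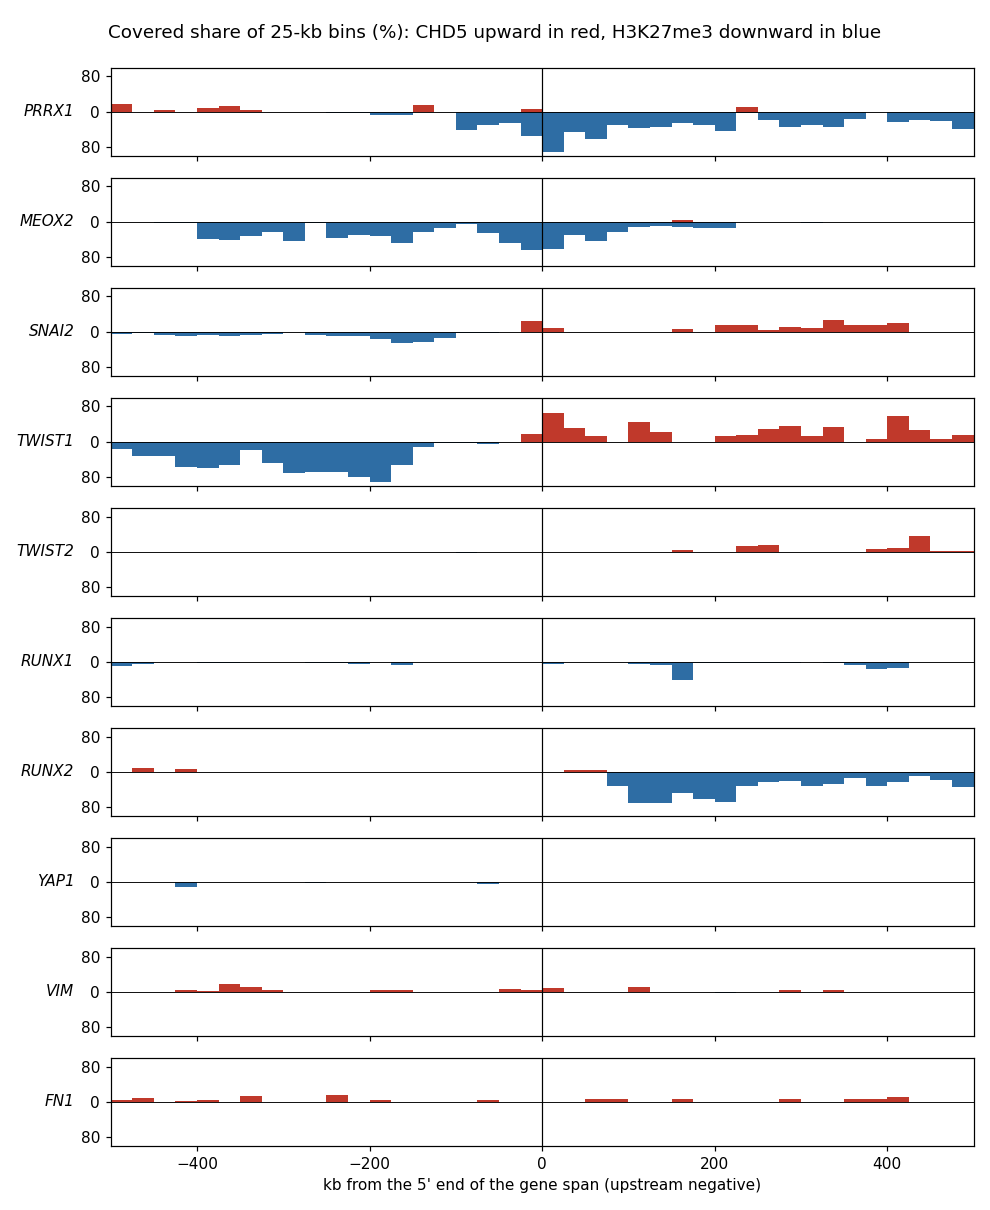
Share of each 25-kb bin (%) covered by CHD5 peaks (red, upward) and H3K27me3 regions (blue, downward) within 500 kb of the 5′ end of each gene, drawn in the direction of the gene, upstream to the left. TWIST1 and SNAI2 show H3K27me3 to the left and CHD5 mostly to the right, and RUNX2 shows 431 of its 432 H3K27me3 regions on the downstream side.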

How the data were processed

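Both lists are MACS peak calls deposited by the authors, per the file headers, with 1 library each and 1 score per entry whose scale is not stated. Coordinates are hg19 by the submitters' processing notes. Not given in the sources used here were the aligner, the version and cut-off of MACS and the library it took as background. If no matched background was used, places that are captured readily would be listed too. Narrow calling, if used, would split a broad mark into short regions. Since neither list gives reads, the depth behind the entries is unknown. The files give no replicate for any group.

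Gene spans came from the rule, to 1 kb. Entries with at least 1 bp within 20 kb of a span were kept and counted from 1. H3K27me3 regions up to 3 kb apart were joined into domains. Tiles ran to the highest listed end of each of 23 chromosomes, gaps of the assembly included. No p-value was computed. All 10 genes are named, with their highest-scoring and nearest entries. The genes, lists and comparisons were chosen with earlier results of these data known, and the 500-kb neighbourhoods, promoter CG counts and score classes were chosen after the values were seen. Strands came from the RefSeq promoter table, except for TWIST1 and SNAI2. Routines for overlap, joining and tiles returned the known answers in 20 of 20 simulated sets. Alternatives covered the flank, the score limit, the overlap, the distance to the 5′ end, the joining gap and tiles of the gene's own chromosome. The work was done in Python 3.11.15 (numpy 2.4.6, scipy 1.17.1, pandas 2.3.3, matplotlib 3.10.9).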

Additional observations from a re-analysis of the deposited data

How the results depend on the processing

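Of 48 alternative counts, 32 stayed within 1.5 times the reported value and 16 did not. Without a flank, CHD5 peaks fell to 6 and overlapping peaks to 1. With scores at or above the list median, H3K27me3 genes came to 4, genes with both to 1, CHD5 peaks to 9, H3K27me3 regions to 316 and overlapping peaks to 0. With scores of at least 100, H3K27me3 genes came to 4, regions to 263 and overlapping peaks to 1. Requiring 50% of the peak left 1 overlapping peak. Requiring the 5′ position itself left 2 genes with CHD5, while 2 kb gave 5 and 5 kb gave 6 genes with H3K27me3. Joining across 1 kb gave 72 domains and across 10 kb 14. TWIST2, YAP1 and VIM hold H3K27me3 only in regions scoring 84.4 or less, so score limits remove them by construction. Taking the other end of TWIST1 and SNAI2, chosen after seeing the data, gave 3 genes with CHD5. Tiles of the own chromosome corresponded to 5.16 windows with CHD5 and 3.66 with H3K27me3. No paired analysis was possible because each group has 1 library, and no replicate could be left out.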

Other observations

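In the surroundings of the other genes, 500 kb on either side of the 5′ end, RUNX2 had 431 of its 432 H3K27me3 regions on the downstream side and 1 upstream, and its highest CHD5 score in that stretch, 129, was the peak inside the gene. PRRX1 had 7 of 8 CHD5 peaks on the upstream side, with the highest score, 649, at 349 to 353 kb from the gene, and 331 H3K27me3 regions touching the downstream side against 84 on the upstream side. MEOX2 had 423 H3K27me3 regions and 1 CHD5 peak. Of all 1-Mb tiles, 5.12% held as many H3K27me3 regions as the RUNX2 stretch, 5.45% as many as PRRX1 and 5.29% as many as MEOX2. As many CHD5 peaks as at PRRX1 were present in 54.9% of tiles, and at least 1 in 86.0%. The median 1-Mb tile held 9 CHD5 peaks and 7 H3K27me3 regions.

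YAP1 and RUNX1 had 0 CHD5 peaks within 500 kb, where 86.0% of 1-Mb tiles held at least 1. Next to this they had 30 and 156 H3K27me3 regions, as many as in 36.5% and 19.9% of tiles. FN1 and VIM had 2 and 4 H3K27me3 regions, and 74.6% and 61.2% of tiles held as many. Their 15 and 14 CHD5 peaks were reached by 29.9% and 33.5% of tiles. TWIST2 had 3 H3K27me3 regions, and its 12 CHD5 peaks all lay downstream, the strongest, with a score of 772, at 440 to 444 kb. As many regions were present in 66.6% of tiles and as many peaks in 40.7%. No cause of these differences was tested.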
